A study of Mus musculus with 14 samples.

Results

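The Hox genes of 2 mouse hindlimb muscles were examined on 14 Agilent 1-colour microarrays, 1 per muscle sample. The members were the 39 genes whose symbol is Hoxa, Hoxb, Hoxc or Hoxd followed by a number only, out of 24559 genes with a symbol on the array. They were measured by 45 probes, and each of the 6 genes with a second probe was represented by the probe of highest mean raw signal. The samples were extensor digitorum longus (EDL) muscles of Ts1Cje mice (n = 3) and of WT mice (n = 3), and soleus muscles of Ts1Cje mice (n = 4) and of WT mice (n = 4). Ts1Cje mice, a model of Down syndrome, are trisomic for a distal part of chromosome 16, and the WT mice were their disomic littermates, all on the C57BL/6 background. The Hox genes themselves lie on chromosomes 6 (Hoxa), 11 (Hoxb), 15 (Hoxc) and 2 (Hoxd), outside the trisomic chromosome. Age and sex are not given in the sources used here, nor whether the EDL and the soleus of 1 number came from the same mouse.

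Hox genes encode homeodomain transcription factors and stand side by side in 4 clusters, in the order in which they are used along the body axis. Genes of the same paralogue number in different clusters are the closest relatives. In the limb bud, the genes of high number in the Hoxa and Hoxd clusters are used in succession from shoulder or hip to digits, and they are also active in the connective tissue that patterns muscles and tendons. The EDL lies in the anterior compartment of the lower leg and extends the toes, and the soleus lies in the calf and extends the ankle. The EDL is built mainly of fast fibres and the mouse soleus holds many slow fibres.

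The windows before the transcription start of Hoxa13, Hoxa11 and Hoxa10 are shown here, as the Hox genes with the largest differences towards the EDL. That of Hoxd4 is shown because the other Hox genes called lower in the EDL, Hoxc5, Hoxa4 and Hoxb5, had no window. The windows are the 250 bases before each start in the RefSeq promoter table (GRCm38.p6), 5′ to 3′ along the gene. That table held 24 such windows for 22 of the 39 Hox genes. Capitals mark matches, on either strand, to the letters TTTATNG (a type of site bound by Hox and Cdx proteins), TGATTNAT (Pbx with Hox), TGACAG (Meis and Pknox) or TATAAA (the TATA box).
Hoxa13 (chr6:52260881-52261130, minus strand): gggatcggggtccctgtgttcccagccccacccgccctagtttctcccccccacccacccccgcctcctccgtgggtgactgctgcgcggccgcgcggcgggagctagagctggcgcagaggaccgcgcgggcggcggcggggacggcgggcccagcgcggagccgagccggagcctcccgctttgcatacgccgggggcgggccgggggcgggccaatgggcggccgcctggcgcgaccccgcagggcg
Hoxa11 (chr6:52245811-52246060, minus strand): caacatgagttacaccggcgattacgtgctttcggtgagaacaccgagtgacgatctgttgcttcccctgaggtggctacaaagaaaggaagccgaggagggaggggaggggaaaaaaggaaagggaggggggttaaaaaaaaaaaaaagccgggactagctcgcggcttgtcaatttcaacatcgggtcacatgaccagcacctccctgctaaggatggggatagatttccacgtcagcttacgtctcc
Hoxa10, first window (chr6:52240855-52241104, minus strand): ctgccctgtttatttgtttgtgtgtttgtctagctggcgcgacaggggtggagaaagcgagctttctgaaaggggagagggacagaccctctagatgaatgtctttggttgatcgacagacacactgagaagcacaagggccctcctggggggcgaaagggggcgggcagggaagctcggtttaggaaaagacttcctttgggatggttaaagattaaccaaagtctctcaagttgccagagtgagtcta
Hoxa10, second window (chr6:52234940-52235189, minus strand): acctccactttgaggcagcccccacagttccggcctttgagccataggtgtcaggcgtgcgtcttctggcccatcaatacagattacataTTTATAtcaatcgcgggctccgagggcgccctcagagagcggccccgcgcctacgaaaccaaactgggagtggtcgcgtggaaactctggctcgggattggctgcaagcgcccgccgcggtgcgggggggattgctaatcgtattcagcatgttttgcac
Hoxd4 (chr2:74721728-74721977, plus strand): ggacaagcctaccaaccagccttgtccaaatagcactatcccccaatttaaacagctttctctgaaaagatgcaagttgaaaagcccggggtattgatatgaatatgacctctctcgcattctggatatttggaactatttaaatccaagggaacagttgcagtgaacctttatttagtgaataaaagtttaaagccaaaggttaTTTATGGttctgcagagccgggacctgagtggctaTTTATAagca

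The Hoxa13 window was 80.0% G and C with 35 CpG pairs and the Hoxa11 window was 52.0% with 13, beside medians of 52.4% and 6 over the 32851 windows of the whole table. TTTATNG was found in 2 of the 24 Hox windows, those of Hoxb8 and Hoxd4, and in 9.81% of all windows. TGATTNAT was found in 2 Hox windows, of Hoxa2 and Hoxd11, and in 2.82% of all windows. TGACAG was found in the windows of Hoxa2 and Hoxa3 and in 15.9% of all windows, and TATAAA in 4 Hox windows, of Hoxa10, Hoxb8, Hoxd4 and Hoxd13, and in 12.4% of all windows. In the Hoxb8 window the TATAAA matches, which read TTTATA on the other strand, overlap those of TTTATNG. These matches describe letters in a window and are no measure of binding.

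Across the arrays, the 75th percentile of signal ran from 62.4 to 144 intensity units and the share of probes well above background from 41.3 to 52.9%. All 6 EDL arrays and soleus Ts1Cje replicate 1 lay on 1 slide and the other 7 soleus arrays on another, so muscle and slide can be told apart by 1 array only. As a check of the genotype labels, Dnah11, a gene raised in Ts1Cje, passed the background flag on 7 of 7 Ts1Cje arrays and on 0 of 7 WT arrays. The muscle labels were checked with fibre markers, as mean log2 level of a list relative to the 75th percentile of each array. The list of 6 fast fibre genes had 9.86 to 10.48 on EDL arrays, against 6.55 to 8.35 on soleus arrays, and the list of 7 slow fibre genes had 1.63 to 5.21 on EDL arrays, against 8.97 to 9.65 on soleus arrays. Levels below are given on this log2 scale, where 0 is the 75th percentile of the array.

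Adult muscle gave signal from a large part of the Hox clusters. Of the 39 genes, 17 were well above background on all 14 arrays, and 9 on none, namely Hoxb1, Hoxb9, Hoxb13, Hoxc8, Hoxc12, Hoxd1, Hoxd3, Hoxd12 and Hoxd13. Detection on every array of the group reached 19 genes in EDL Ts1Cje, 19 in EDL WT, 22 in soleus Ts1Cje and 21 in soleus WT. The share of all probes above background was 41.27 to 47.2% on EDL arrays and 43.66 to 52.93% on soleus arrays. These counts are therefore not read as a trait of the Hox genes. By paralogue number, 2 of 8 genes of numbers 1 to 3, 13 of 15 of numbers 4 to 8 and 8 of 16 of numbers 9 to 13 passed the condition for a test, a signal well above background on all arrays of 1 group or more. Of these 23 genes, 17 were above background on all 14 arrays. The other 6 tested genes, Hoxa4, Hoxa5, Hoxa6, Hoxa13, Hoxb5 and Hoxc5, passed in some groups only. For them the condition can favour a gene that is high in 1 group, so counts describe the tested genes and not all members. A further 7 genes, among them Hoxa2, Hoxb8 and Hoxd10, were above background on some arrays only and were not tested. By cluster, 9 of 11 Hoxa, 5 of 10 Hoxb, 6 of 9 Hoxc and 3 of 9 Hoxd genes were tested. A probe that is not above background sets only an upper bound, since probes differ in their response, and genes are therefore not ranked by level here.

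**Figure D1:**
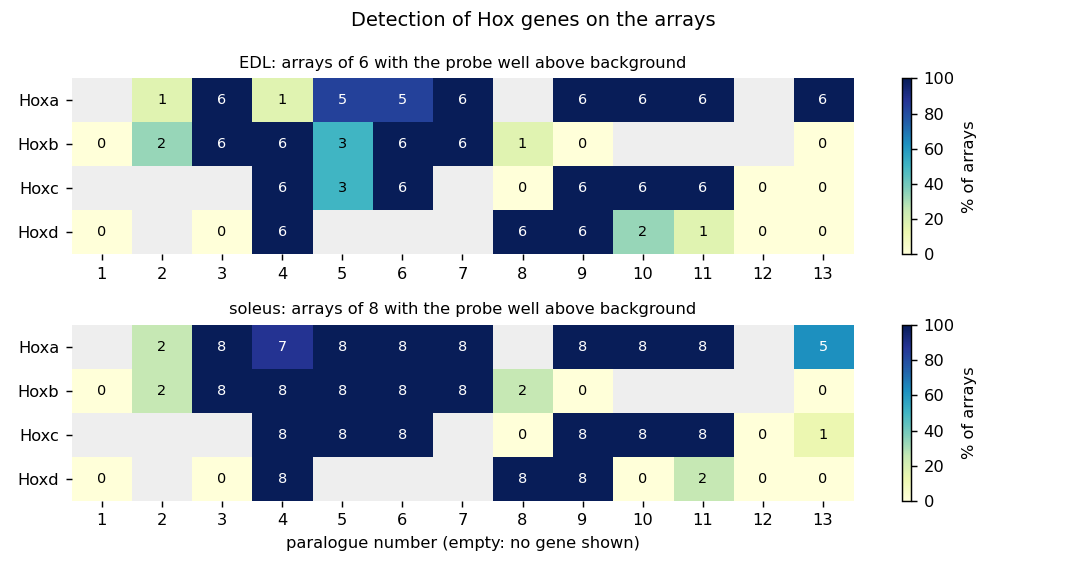
Each filled cell is a Hox gene, with clusters down the page and paralogue number across, and the number and colour give on how many of 6 EDL arrays (top) and 8 soleus arrays (bottom) its probe was well above background. Numbers 3 to 11 hold most detected genes, Hoxa13 was detected on 6 of 6 EDL arrays and 5 of 8 soleus arrays, and no Hoxd gene of number 12 or 13 was detected on any array.

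The comparison of EDL with soleus asked whether the muscles differ in their Hox genes. Averaged over the genotypes, 10 of the 23 tested genes differed (limma, adjusted p under 0.05 over 14161 genes), which is 43.5%, beside 46.5% of all genes tested. Hoxa13, Hoxa11, Hoxa10, Hoxb6, Hoxc10 and Hoxa7 were higher in the EDL (6 genes, beside 27.7% of all genes), and Hoxc5, Hoxa4, Hoxb5 and Hoxd4 were lower in the EDL (4 genes, beside 18.8%). In Ts1Cje muscles 7 of 23 differed (30.4%, beside 29.9% of all genes) and in WT muscles 7 of 23 (30.4%, beside 29.8%), or 4 without EDL WT replicate 2. The share of all genes called without that array is not given here. The shares given are near those of all genes. The number of Hox genes that differed is thus not a result about the cluster genes as a list. The median log2 difference of the 23 genes was -0.11, beside 0.04 for all genes tested.

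The calls were also counted by paralogue number, beside 27.7% of all genes called higher and 18.8% called lower in the EDL. Of the 8 tested genes of numbers 9 to 13, 4 were higher in the EDL and 0 lower, with a median log2 difference of 0.36. These were Hoxc10 and the cluster neighbours Hoxa10, Hoxa11 and Hoxa13. Of the 13 tested genes of numbers 4 to 8, 2 were higher and 4 lower, with a median of -0.26, and of the 2 tested genes of numbers 1 to 3, 0 differed. The bands hold few genes, no test of the difference between them was made, and their counts are not read as a result about paralogue number. Within the Hoxa cluster the log2 difference was 0.03 for Hoxa9, 0.76 for Hoxa10, 1.35 for Hoxa11 and 1.86 for Hoxa13, in the order of the genes towards the 5′ end. Among the alternatives the lowest Hoxa13 value was 0.63 and the lowest Hoxa11 value 0.80, so this order was not kept in all of them. The second probe of Hoxa9 had 0.45 and was called in a fit over all 25190 kept probes (limma adjusted p = 0.0209), so the probes of Hoxa9 disagree. All 4 tested genes of number 4 and all 3 of number 5 had a negative difference, of which 4 in all were called, except that with normexp background correction Hoxa4 stood at 0.01 and Hoxb5 at 0.00.

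**Figure D2:**
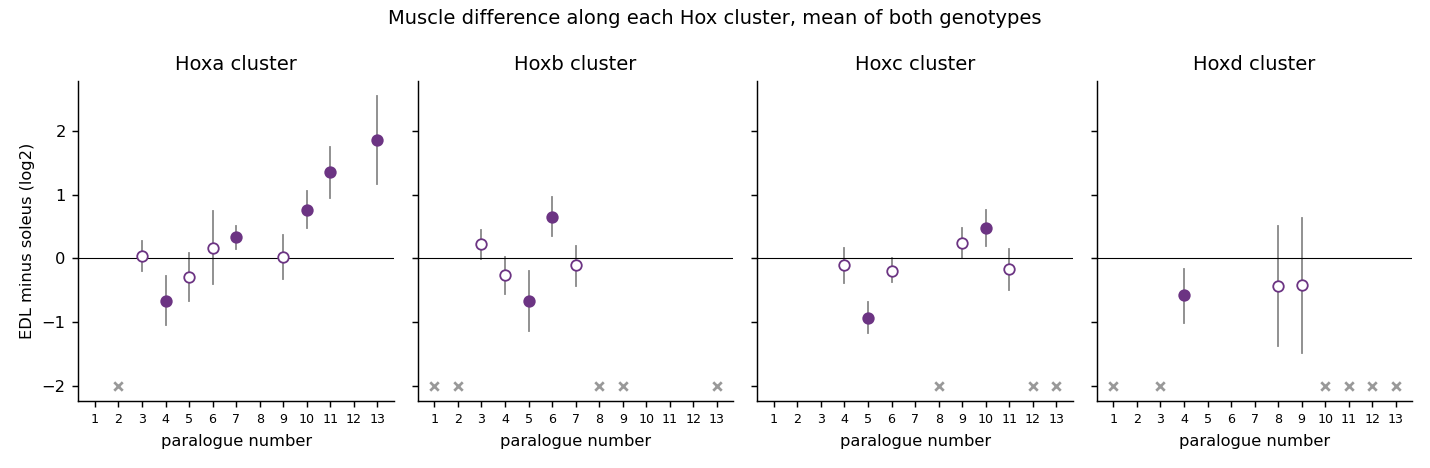
The log2 difference of EDL minus soleus, averaged over the genotypes, is plotted against paralogue number in each cluster, with points for tested genes, filled where the adjusted p was under 0.05, lines for 95% confidence intervals and crosses at the bottom for genes not tested. In the Hoxa cluster the points lie at 0.03, 0.76, 1.35 and 1.86 for numbers 9, 10, 11 and 13.

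Hoxa13, a regulator of the digits and foot, gave the largest difference among the Hox genes in the main fit. Its probe (mm9 chr6:52208980-52209039) had log2 levels of -1.14, -1.04 and -1.06 on EDL Ts1Cje arrays and -1.51, -0.56 and -1.45 on EDL WT arrays, against -2.95, -4.11, -2.64 and -2.35 on soleus Ts1Cje arrays and -2.73, -2.14, -2.84 and -4.10 on soleus WT arrays. All 6 EDL arrays were above all 8 soleus arrays, and 3 of the soleus values were not above background. The log2 difference of EDL minus soleus was 1.86 ± 0.32 (SE), or 3.62-fold, with limma adjusted p = 0.000453. It was 1.93 in Ts1Cje (adjusted p = 0.00671) and 1.78 in WT (adjusted p = 0.0104), where leaving out EDL WT replicate 2 gave 1.47 (adjusted p = 0.0536). With slide as a block it was 1.78 (limma adjusted p = 0.109), which ends the call. Slide 1 held 1 soleus array, at -2.95 and not above background, which lay below the 6 EDL arrays of that slide. The other probe of Hoxa13 was above background on 0 of 14 arrays. As 3 soleus values were not above background, the size of the Hoxa13 difference is not a measured one. Over the alternatives the difference averaged over the genotypes ran from 0.63 to 1.99.

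Hoxa11, which acts in the patterning of the lower leg and forearm, had log2 levels of 0.80, 0.68 and 0.85 on EDL Ts1Cje arrays and 0.70, 1.49 and 0.48 on EDL WT arrays, against -0.88, -0.37, -0.29 and -0.59 on soleus Ts1Cje arrays and -0.51, 0.09, -0.51 and -1.03 on soleus WT arrays. The muscles did not overlap. The difference was 1.35 ± 0.19 (SE), or 2.54-fold (limma adjusted p = 8.41e-05), and it was 1.76 with slide as a block (adjusted p = 0.0115). Within slide 1 it was 1.66 in Ts1Cje, with 1 soleus array as its whole soleus side, so the p of such a value (0.0483, limma adjusted) takes the spread from the EDL arrays and assumes it for the soleus. Hoxa11os, the non-coding transcript from the opposite strand of Hoxa11, had 1.41 to 2.35 on EDL arrays, against 0.34 to 1.03 on soleus arrays. It was also higher in the EDL, by 1.22 ± 0.14 (SE, limma adjusted p = 2.02e-05). Across arrays within a muscle the 2 transcripts correlated at r = 0.85 over 6 EDL arrays and 0.90 over 8 soleus arrays, as a description of points that share array and mouse.

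Hoxa10, which is used near the hip and in the thigh, had 0.57, 0.66 and 0.52 on EDL Ts1Cje arrays and 0.17, 0.78 and 0.35 on EDL WT arrays, against -0.38, 0.02, 0.20 and -0.37 on soleus Ts1Cje arrays and -0.27, -0.11, -0.39 and -0.73 on soleus WT arrays. Within each genotype the muscles did not overlap, and across genotypes 1 EDL WT array lay below 1 soleus Ts1Cje array. The difference was 0.76 ± 0.13 (SE), or 1.70-fold (limma adjusted p = 0.000472), and 1.05 with slide as a block (adjusted p = 0.024). Within slide 1, again on 1 soleus array, the Ts1Cje value was 0.97 (adjusted p = 0.0688). Hoxa13, Hoxa11 and Hoxa10 were the Hox genes called in both genotypes in the direction of the EDL.

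Hoxc10, a gene of the hindlimb and of lumbar motor neurons, had 2.0 to 2.14 on EDL Ts1Cje arrays and 1.83 to 2.39 on EDL WT arrays, against 1.22 to 2.03 on soleus Ts1Cje arrays and 1.36 to 1.69 on soleus WT arrays. Its difference was 0.48 ± 0.13 (SE, limma adjusted p = 0.00874) over the genotypes and 0.54 in WT (adjusted p = 0.041). The WT call was kept in 9 of 19 alternatives. Among others, it was lost with the replicate number as a block (0.47, limma adjusted p = 0.0726). Of the other tested genes of numbers 9 to 13, Hoxc9 stood at 0.24 (limma adjusted p = 0.0923), Hoxc11 at -0.17 and Hoxd9 at -0.42, none of them called.

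Among genes of the middle numbers, Hoxb6 was higher in the EDL by 0.65 ± 0.14 (SE, limma adjusted p = 0.00232), with 3.26 to 3.83 on EDL Ts1Cje arrays and 3.39 to 3.85 on EDL WT arrays, against 2.55 to 3.01 on soleus Ts1Cje arrays and 2.77 to 3.61 on soleus WT arrays. The Ts1Cje muscles did not overlap, with a difference of 0.84 (limma adjusted p = 0.00731), and the WT muscles did, with 0.47 (adjusted p = 0.0995). Hoxa7, used in the trunk, was higher by 0.33 ± 0.08 (SE, limma adjusted p = 0.0054), with 2.0 to 2.21 on EDL Ts1Cje arrays and 2.12 to 2.48 on EDL WT arrays, against 1.79 to 2.14 on soleus Ts1Cje arrays and 1.73 to 1.89 on soleus WT arrays. With slide as a block neither was called (adjusted p = 0.222 for Hoxb6 and 0.124 for Hoxa7). Hoxb3 was called in Ts1Cje alone (0.55, limma adjusted p = 0.0142), and the difference between the genotypes in this value was 0.66 (limma adjusted p = 0.987, unadjusted p = 0.00786). With the replicate number as a block the Hoxb3 value in Ts1Cje was 0.53 (limma adjusted p = 0.0559).

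Hoxc5, a gene of the neck and forelimb level of the axis, was the Hox gene with the smallest p. It had -2.54, -2.57 and -2.11 on EDL Ts1Cje arrays and -2.46, -2.81 and -2.20 on EDL WT arrays, against -1.53, -1.45, -1.70 and -1.66 on soleus Ts1Cje arrays and -1.38, -1.38, -1.63 and -1.40 on soleus WT arrays. All EDL values lay below all soleus values, and 3 of the 6 EDL values were not above background, while 8 of 8 soleus values were. The difference was -0.93 ± 0.11 (SE, limma adjusted p = 2.05e-05), with -0.82 in Ts1Cje and -1.04 in WT. In a normexp background correction, which draws dim probes together, it was -0.14 (limma adjusted p = 0.14). With slide as a block it was -0.99 (adjusted p = 0.0166), and within slide 1, on 1 soleus array, it was -0.87 in Ts1Cje (adjusted p = 0.123).

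The other 3 genes that were lower in the EDL lay close to background or varied more. Hoxa4 had -3.77 to -2.45 on EDL arrays, where 1 of 6 was above background, against -2.61 to -2.04 on soleus arrays, with 7 of 8. No EDL Ts1Cje array was above background for Hoxa4. The fitted difference in Ts1Cje was -0.57 (limma adjusted p = 0.104), which was not called, and its size is not a measured one. The fitted difference over the genotypes, -0.67 (limma adjusted p = 0.0081), rests on EDL values of which 5 of 6 were not above background, so its size is not a measured one, and the same holds in WT, with 2 of 3. The WT value of -0.76 (limma adjusted p = 0.0356) became -0.77 with the replicate number as a block (adjusted p = 0.0986). The Hoxa4 call in WT was kept in 4 of 19 alternatives. Hoxb5 differed by -0.66 ± 0.22 (SE, limma adjusted p = 0.0239), and 3 of its 6 EDL values were not above background. Hoxd4 differed by -0.58 ± 0.20 (SE, limma adjusted p = 0.0278), with -1.78, -1.49 and -1.72 on EDL Ts1Cje arrays and -1.79, -0.90 and -0.92 on EDL WT arrays, against -0.72, -1.05, -0.86 and -0.54 on soleus Ts1Cje arrays and -1.57, -0.39, -1.12 and -0.55 on soleus WT arrays. Hoxd4 was called in Ts1Cje (-0.87, limma adjusted p = 0.032) and not in WT (-0.30, adjusted p = 0.454), and the call over the genotypes was kept in 14 of 25 alternatives. The groups of all EDL and all soleus arrays did not overlap for 3 of the 23 genes, beside 20.3% of all genes.

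**Figure D3:**
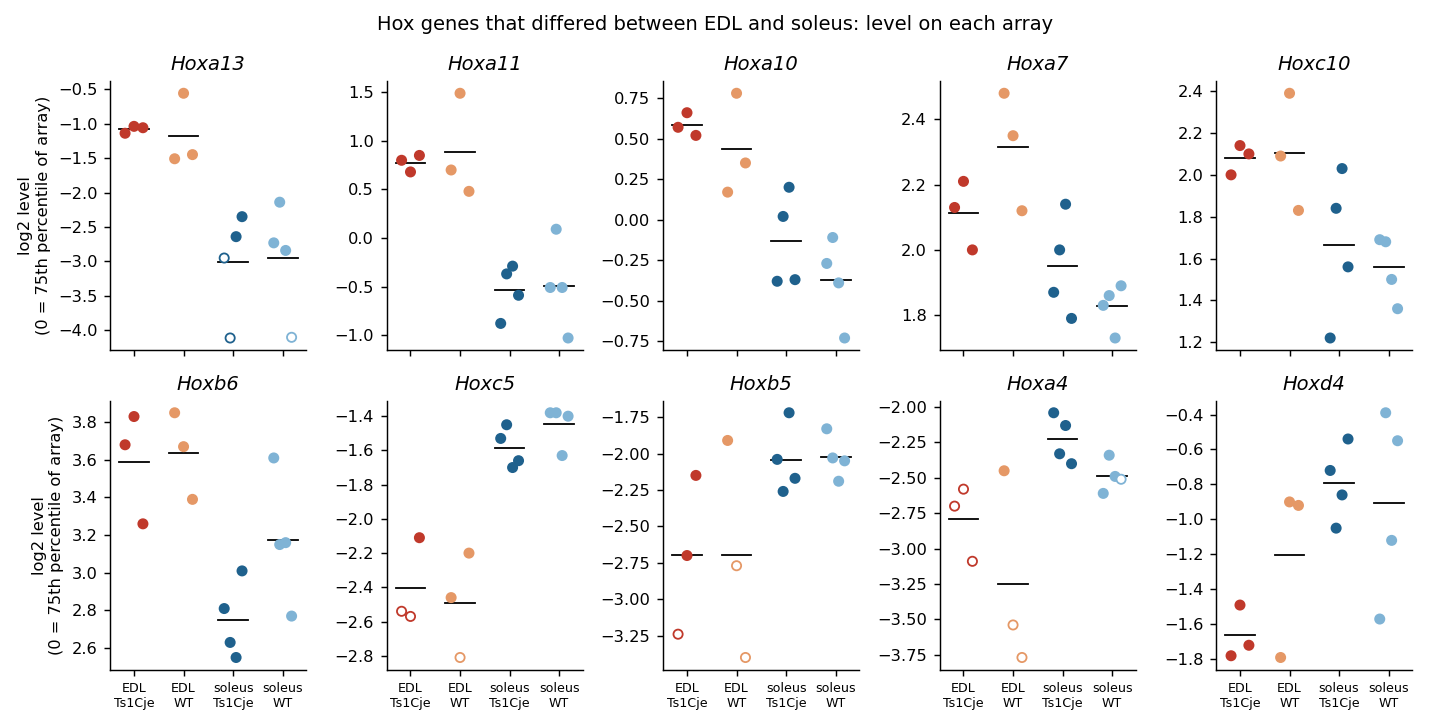
Each panel shows the log2 level of 1 of the 10 Hox genes called between the muscles, on every array, with the groups EDL Ts1Cje, EDL WT, soleus Ts1Cje and soleus WT from left to right, the black line at the group mean and open points for probes not above background. All EDL points lie above all soleus points for Hoxa13 and Hoxa11 and below them for Hoxc5, and the groups overlap for Hoxb5 and Hoxd4.

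Hoxd8 and Hoxd9, the most posterior Hoxd genes that were detected on all arrays, were not called between the muscles and had widely spaced values among EDL arrays. Hoxd8 had -1.25, -1.38 and 1.23 on EDL Ts1Cje arrays 1, 2 and 3 and -1.14, -1.23 and 1.09 on EDL WT arrays 1, 2 and 3, against 0.53, 0.42, 0.28 and 0.53 on soleus Ts1Cje arrays and -0.93, -0.41, -0.20 and -0.34 on soleus WT arrays. Hoxd9 had -2.20, -2.27 and 0.50 on EDL Ts1Cje arrays and -2.50, -1.82 and 0.56 on EDL WT arrays, against -0.54, -0.25, -0.45 and -0.34 on soleus Ts1Cje arrays and -1.40, -1.54, -1.03 and -1.39 on soleus WT arrays. The EDL arrays numbered 3, of both genotypes, lay above the other EDL arrays and above all soleus arrays for both genes. These arrays also had the highest 75th percentile of signal among EDL arrays (99.6 in WT and 103.6 in Ts1Cje). By the array names they alone of the EDL arrays lay in the second row of the slide. The part of array position in these values was not tested. Within a muscle the genes correlated at r = 0.98 over 6 EDL arrays and 0.91 over 8 soleus arrays, as a description of neighbours on the chromosome that share array and mouse.

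Of the 23 tested Hox genes, 5 had their highest EDL value on array 3 in both genotypes and 6 their lowest, beside 17.9% and 14.8% of all genes tested. Of the 19 tested genes of limb identity and patterning, 4 had their highest there, among them Pitx1 and Tbx3, and 6 their lowest, among them Alx4 and Osr1. The genes described next were named after their values were seen. Pitx1, a homeobox gene of hindlimb identity, had -3.57, -3.23 and -1.69 on EDL Ts1Cje arrays and -5.38, -4.77 and -0.85 on EDL WT arrays, against -1.94 to -1.69 on soleus Ts1Cje arrays and -3.05 to -1.47 on soleus WT arrays, and it was above background on 1 of 3 arrays of each EDL group. Tbx3, a T-box gene, had 0.98, 1.45 and 2.93 on EDL Ts1Cje arrays and 1.37, 1.49 and 2.63 on EDL WT arrays. In the other direction, Alx4, an aristaless-like homeobox gene, had 0.75, 1.04 and 0.21 on EDL Ts1Cje arrays and 0.82, 0.89 and 0.13 on EDL WT arrays. Osr1, a zinc finger gene of connective tissue, had -0.91, -0.91 and -1.75 on EDL Ts1Cje arrays and -1.03, -0.64 and -1.70 on EDL WT arrays. Array 3 was thus the highest for some of these genes and the lowest for others. Hoxd3os1, a transcript of the Hoxd cluster above background on 4 of 14 arrays, had -3.97, -2.84 and -1.34 on EDL Ts1Cje arrays and -4.92, -3.46 and -1.81 on EDL WT arrays. The mean of the slow fibre list on EDL arrays 1, 2 and 3 was 2.79, 2.20 and 4.64 in Ts1Cje and 5.21, 1.63 and 4.67 in WT. The part of fibre content in the Hoxd8 and Hoxd9 values was not tested. Without the EDL arrays numbered 3, Hoxd8 and Hoxd9 were called lower in the EDL, and 12 Hox genes were called over the genotypes. This alternative was chosen after the values were seen. The share of all genes called in it is not given here, so the count is not read as a result about Hox genes.

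**Figure D4:**
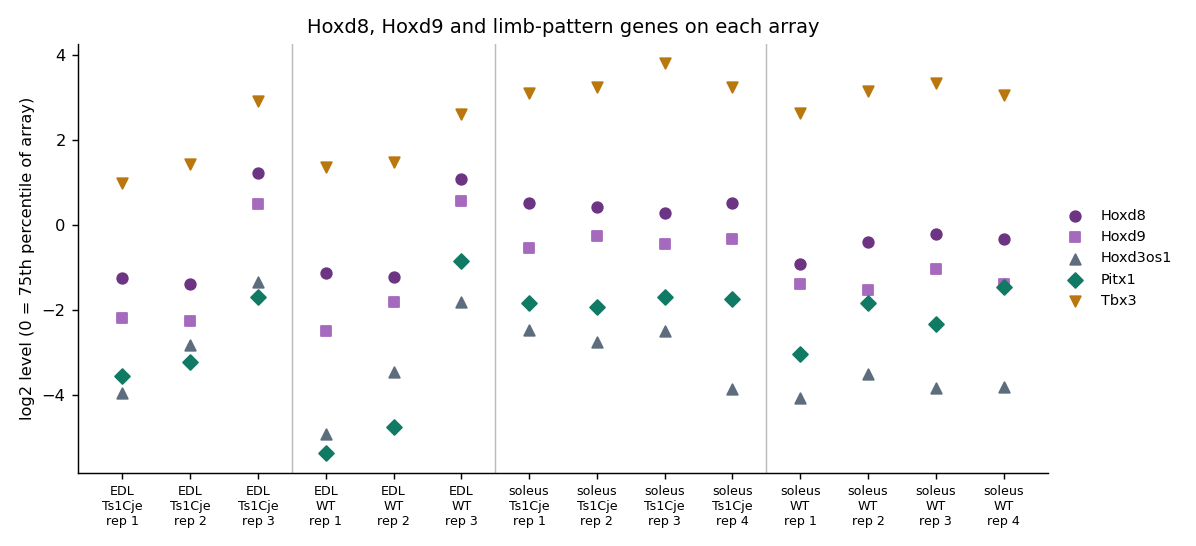
The log2 level of Hoxd8, Hoxd9, Hoxd3os1, Pitx1 and Tbx3 is plotted for every array, by group and replicate, and each gene is to be read along its own symbols only. In the EDL groups the arrays numbered 3 lie above numbers 1 and 2 for all 5 genes, and Hoxd8 there reaches 1.23 and 1.09, above the soleus values of up to 0.53.

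The comparison of Ts1Cje with WT asked whether trisomy moved the Hox genes within a muscle. In the EDL, 0 of 23 were called, beside 0.00706% of all genes tested, and 0 had an unadjusted p under 0.05, beside 2.87% of all genes. In the soleus, 0 of 23 were called, beside 0.247% of all genes, and 3 had an unadjusted p under 0.05, beside 13.6% of all genes. The difference of the genotype effect between the muscles was called for 0 of 23, beside 0% of all genes, with 1 at an unadjusted p under 0.05, beside 3.20% of all genes. The median log2 difference of Ts1Cje minus WT was -0.01 in the EDL, beside 0.00 for all genes, and 0.06 in the soleus, beside 0.07. The median SE of these differences over the Hox genes was 0.22 for the EDL and 0.19 for the soleus.

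The soleus values with the smallest p were those of Hoxa9, Hoxb3 and Hoxb6. Hoxa9, which with its neighbours is used in the trunk and upper limb, had -1.70, -1.91, -1.50 and -1.57 on soleus Ts1Cje arrays, against -1.05, -0.99, -1.10 and -0.04 on soleus WT arrays. The groups did not overlap, as for 8.40% of all genes in either direction, and the difference was -0.88 ± 0.21 (SE, limma adjusted p = 0.165). Without soleus WT replicate 4, which stood apart, it was -0.62 (limma adjusted p = 0.137). The second probe of Hoxa9 had a difference of 0.02 (limma adjusted p = 0.969 in the fit over all kept probes), and its group means were -1.36 in soleus Ts1Cje and -1.38 in soleus WT. Hoxb3 had -1.79, -1.66, -1.47 and -1.75 on soleus Ts1Cje arrays, against -1.29, -1.35, -1.16 and -1.28 on soleus WT arrays, a difference of -0.40 (limma adjusted p = 0.289). Hoxb6 differed by -0.42 (limma adjusted p = 0.349).

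Among the 23 tested genes, Hoxa9, Hoxb3, Hoxd8 and Hoxd9 did not overlap between the genotypes in the soleus, beside 8.40% of all genes. Hoxd8 and Hoxd9 had soleus Ts1Cje arrays above all soleus WT arrays. Their differences were 0.91 ± 0.57 (SE, limma adjusted p = 0.474) and 0.94 ± 0.64 (SE, limma adjusted p = 0.508). The SE rests on 1 spread for all groups, and that spread includes the EDL arrays numbered 3. Hoxd8 was not called in any of 19 alternatives (smallest limma adjusted p = 0.0993). In the EDL the smallest p values were those of Hoxa4 at 0.46, Hoxa7 at -0.21, Hoxb3 at 0.26 and Hoxd4 at -0.46, all with a limma adjusted p of 1. The 95% confidence intervals of Ts1Cje minus WT for Hoxa13 ran from -0.95 to 1.14 in the EDL and from -0.97 to 0.85 in the soleus, and those for Hoxa11 from -0.73 to 0.50 in the EDL and from -0.57 to 0.49 in the soleus, so smaller genotype differences were not detectable here.

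**Figure D5:**
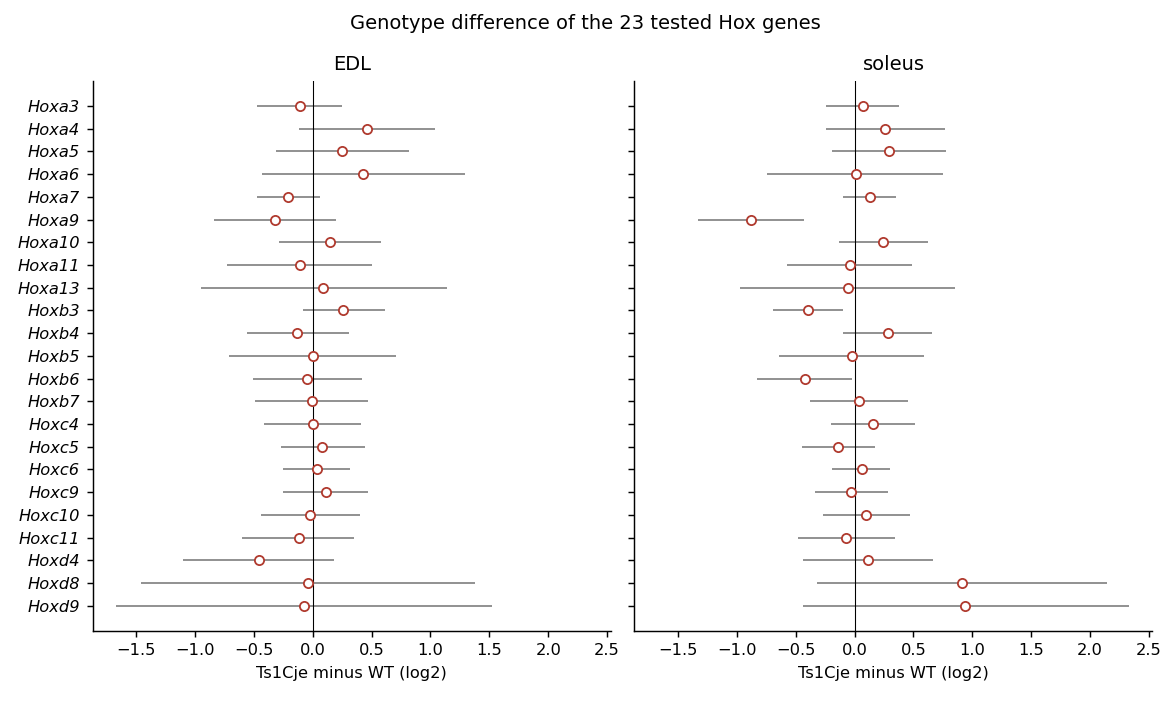
The log2 difference of Ts1Cje minus WT is shown for each of the 23 tested Hox genes in the EDL (left) and soleus (right), with points for estimates and lines for 95% confidence intervals. No gene passed the adjusted p of 0.05, and the widest intervals are those of Hoxd8 and Hoxd9.

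Genes known to act with Hox proteins are described by lists, whose counts stand beside the 46.5% of all tested genes that differed between the muscles (27.7% higher and 18.8% lower in the EDL). With lists of this size no share is read as a result about a list. The first list held cofactors of the TALE class, homeodomain proteins that bind DNA together with Hox proteins, and Pbxip1, which is not of that class. Of its 10 tested genes, 5 were higher and 2 lower in the EDL over the genotypes. The Pbx-binding protein gene Pbxip1 differed by 0.55 ± 0.08 (SE, limma adjusted p = 9.12e-05), Pknox2 by 0.54, Pbx3 by 0.42 and Tgif1 by 0.38, and all 4 were called. Meis1, a partner of Hox and Pbx proteins, was lower, with a difference of -1.04 ± 0.21 (SE, limma adjusted p = 0.00159), as was Meis3 with -0.44. Of 19 tested genes of limb identity and patterning, 4 were higher and 7 lower. The zinc finger gene Zic1 was 8.49-fold higher (log2 3.09 ± 0.21, SE, limma adjusted p = 1.72e-07), with 0.68 to 1.56 on EDL arrays, against -3.01 to -1.01 on soleus arrays. Tbx15, which is used in fast fibres, was higher by 1.65, Osr1 by 1.27 and Alx4 by 0.70, while Tbx4, a gene of hindlimb identity, was lower, with a difference of -1.21, as was Tbx3 with -1.40.

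Of 24 tested chromatin regulators known for their action on Hox clusters, 4 were higher and 7 lower in the EDL, 11 of 24 in all, which is near the share of all genes. Cbx7, a subunit of Polycomb complexes, was higher by 1.45 ± 0.09 (SE, limma adjusted p = 8.4e-08), Kdm6a, a demethylase of the repressive mark, by 0.64, Eed by 0.49 and Ezh1, a methyltransferase of that mark, by 0.45. The Polycomb gene Phf19 was lower, with a difference of -0.78. It was above background on 1 of 3 arrays of each EDL group, so the size of this difference is not a measured one. Of 13 tested genes that flank the clusters, 5 were higher and 2 lower, among them Snx10 at 0.78, Lnpk at 0.72, Snf8 at 0.31, Hibadh at 0.30, Atf2 at 0.23 and Mtx2 at -0.49. Of 4 tested non-coding transcripts and Evx genes of the clusters, 1, Hoxa11os, was called. In Ts1Cje against WT, 0 genes of these 5 lists were called in either muscle. The median log2 difference between muscles was 0.33 for TALE cofactors with Pbxip1 and -0.14 for limb patterning. It was 0.02 for chromatin regulators and 0.23 for flanking genes, beside 0.04 for all genes tested.

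In whole muscle, fewer cells of a type and less RNA per cell cannot be told apart. Beside the Hox values, the mean of the 10 fibroblast and connective tissue markers was 3.23 to 3.69 on EDL arrays, against 3.15 to 3.85 on soleus arrays, and 1 of 10 was called higher and 1 lower in the EDL. The mean of the 5 tendon markers was 0.56 to 2.18 on EDL arrays, against 0.77 to 2.74 on soleus arrays, with 3 of 5 called lower in the EDL and a median difference of -1.04. The mean of the 5 adipocyte markers, of which Lep was not tested, was -0.79 to 1.36 on EDL arrays, highest on EDL WT replicate 3, against 0.35 to 2.39 on soleus arrays, and 4 of 4 tested were called lower, with a median difference of -2.54. The satellite cell markers, of which Myf5 was not tested, had -0.50 to 0.54 on EDL arrays, against 0.37 to 0.61 on soleus arrays. Of the 3 tested, 0 were called higher and 1 lower in the EDL. The 5 macrophage markers had 0.25 to 0.66 on EDL arrays, against 0.73 to 1.43 on soleus arrays, without overlap, and 3 of 5 were called lower. These counts stand beside 27.7% of all genes tested called higher and 18.8% called lower in the EDL. Arrays of the muscles did not overlap for 20.3% of all genes. With lists of this size no share is read as a result about a cell type. The part of these cell types in the Hox differences was not tested. By correlation over the 14 arrays, the genes nearest to Hoxa13 were Ecpas (r = 0.956), Crebl2 and Ptp4a2, those nearest to Hoxa11 were Dexi (r = 0.978), Gm12693 and Pcyt1a, and those nearest to Hoxc5 were Bdh1 (r = 0.975), Myoz2 and Myh2. The 14 points share the muscle difference, so these correlations describe it.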

How the data were processed

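Per the labels, Cy3-labelled cRNA from 25 ng of RNA per muscle was put on 1-colour Agilent arrays. The authors deposited scanner output with gProcessedSignal, a background-subtracted intensity not normalized between arrays, and background flags per probe. Agilent Feature Extraction made it, in version 11.5.1.1 by the file headers, while the submitters' processing notes name 9.1. The normalized table that the authors deposited holds log2 values, each array set to its 75th percentile and each probe to its median, as a match to the scanner values showed (lowest r 0.9999). Its column medians run from -0.193 to 0.254. The authors' deposited table of raw values, an intensity, chose the probe of each gene. Probe positions are mm9, per the file headers.

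Values were log2(gProcessedSignal) minus the log2 75th percentile of the array, with spots of a probe averaged. Of 55681 probes 33822 had a symbol, 2138 of them updated through the reference. A gene was kept if its probe passed the background flag on all arrays of 1 group or more, which gave 14161 genes. Group means on the 14 arrays were fitted in limma 3.58.1 (R 4.3.3, 10 residual and 2.8 prior degrees of freedom), two-sided, with p adjusted by Benjamini-Hochberg over the 14161 genes and a threshold of 0.05. The median SE was 0.12 for the mean muscle difference, and precision is limited by the number of arrays. No probe was marked saturated. Test values are given for members called in any comparison and for the 4 of smallest p in each, and up to 6 called genes of each list are named, apart from some genes that are not reported here and are left out of the plots. The members and lists were chosen with earlier results of these data known. The test was checked on simulated data with independent noise for each gene and array. Those data held no slide effect and no background limit, so the check does not cover these.

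Per the design text the samples came as littermate pairs. Same-numbered arrays deviated together between the genotypes in the EDL (r 0.40, 0.12 and 0.31) and between the muscles in WT (0.51, 0.41 and 0.33). By the array names, the same-numbered EDL arrays were neighbours on their slide. Those of the muscles in WT had the same position on the 2 slides. Pairs and array position therefore cannot be told apart by these correlations. The number was used as a block in an alternative only, and the main fit holds no pairs. As the scanner files hold no mean signal, normexp with an offset of 50 used the median signal in its place. P-values measure the spread between these samples. Alternatives are given in the closing section.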

Additional observations from a re-analysis of the deposited data

Results flagged for a closer look

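In 46 groups of 4 soleus arrays, 3 had an array far from the other 3, where chance flags about 1 in 20 groups. Hoxa9 stood at -0.04 on soleus WT replicate 4, against -1.10 to -0.99 on the other WT arrays. Hoxb4 stood at -1.95 on soleus Ts1Cje replicate 4, against -1.51 to -1.46 on the other Ts1Cje arrays. Hoxc5 stood at -1.63 on soleus WT replicate 3, against -1.40 to -1.38 on the other WT arrays. All values are log2 levels relative to the 75th percentile of the array.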

How the results depend on the processing

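Hoxa11 was called higher in the EDL in all 3 muscle comparisons and Hoxa10 in the mean over genotypes under every alternative run, with log2 differences of 0.80 to 1.76 for Hoxa11 and 0.46 to 1.05 for Hoxa10 in that mean. For Hoxa13 the mean was called in 24 of 25 alternatives (0.63 to 1.99). With normexp, 3 genes were called in WT and 5 in the mean, all higher in the EDL, and Hoxa4 (0.01) and Hoxb5 (0.00) changed sign in the mean. The cause was not tested. With slide as a block, which rests on soleus Ts1Cje replicate 1, the calls numbered 4 in Ts1Cje, 3 in WT and 4 in the mean, and within slide 1, where that array is the whole soleus side and is assumed to vary like the EDL arrays, they numbered 2 in Ts1Cje. With slide as a random block they numbered 7, 6 and 8. The fits within slide 1 and with the random block were chosen after seeing the data. Counts of calls in this closing section stand without the share of all genes called in the same fit. A change in them is therefore not read as particular to the Hox genes.

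Leaving out 1 array at a time gave 5 to 8 calls in Ts1Cje, 4 to 7 in WT (4 without EDL WT replicate 2, where Hoxa13 had limma adjusted p = 0.0536), 8 to 10 in the mean and 0 in each genotype comparison, and a median of 0.31 to 0.39 for the paralogues 9 to 13. Without single arrays the calls of Hoxd4, Hoxa4 in WT, Hoxc10 in WT, Hoxb5, and Hoxb3 without EDL Ts1Cje replicate 2 (limma adjusted p = 0.0682) were lost. Hoxd4 kept its call in 9 of 20 alternatives in Ts1Cje and 14 of 25 in the mean. In WT, Hoxc10 kept its call in 9 of 19 alternatives and Hoxa4 in 4 of 19. The replicate block gave 7 calls in Ts1Cje, 5 in WT, 13 in the mean and 0 between genotypes, and beside the calls named in the report (Hoxa4 and Hoxc10 in WT, Hoxb3 in Ts1Cje) it ended no other call. Same-numbered soleus arrays of the genotypes did not deviate together (r -0.12, -0.29, 0.01 and -0.13), nor did the muscles in Ts1Cje (-0.09, -0.16 and 0.12), so there the block joins arrays that share a number only. Signal over background limits Hoxa4, Hoxb5 and Hoxc5 in the EDL and Hoxa13 in the soleus.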
